A study of Mus musculus with 18 samples.

Results

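The Meis, Pbx and Pknox genes of the forelimb bud were followed across 18 RNA-sequencing libraries of mouse embryos. The set held 7 genes, Meis1, Meis2, Meis3, Pbx2, Pbx3, Pknox1 and Pknox2, chosen by name from the 55487 genes of the deposited count files. All 7 passed the filter on low counts that kept 20118 genes for testing. Mutants were Esco2fl/fl;Prrx1-CreTg/0 embryos, in which both Esco2 alleles carry loxP sites and the Prrx1-Cre transgene can delete them in limb mesenchyme. Controls were Esco2fl/fl embryos with the same alleles and no Cre, so Cre and the loss of Esco2 cannot be told apart. With E for embryonic day, 3 libraries of each genotype came from E9.5, 3 from E10.5 and 3 from E11.5. The labels describe individual forelimb buds and leave it unsaid whether any came from the same embryo or litter, so each p-value speaks for the spread among these libraries alone. The study's own design compared mutant with control at each stage.

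Meis, Pbx and Pknox proteins are homeodomain transcription factors of the TALE class, named for extra residues in the loop of the homeodomain. Pbx proteins form dimers with a Meis or Pknox (Prep) partner and bind DNA beside Hox proteins as cofactors, and Meis and Pknox proteins also bring Pbx into the nucleus. In the vertebrate limb, Meis1 and Meis2 first span the young bud and are then restricted to its proximal end, where the upper arm forms. Retinoic acid is known to promote their expression, and FGF signals from the apical ridge oppose it. Pbx genes act in limb outgrowth and in the proximal skeleton, while Pknox1 is expressed in most embryonic cells.

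On mm10, the genome build of the count files, Meis1 (ENSMUSG00000020160.18) lies on the minus strand of chromosome 11 from 18879817 to 19018985 and Meis2 (ENSMUSG00000027210.20) on the minus strand of chromosome 2 from 115863064 to 116065839. Meis3 (ENSMUSG00000041420.18) lies on the plus strand of chromosome 7 from 16175090 to 16186504. Pbx2 (ENSMUSG00000034673.14) lies on the plus strand of chromosome 17 from 34591266 to 34597400, and Pbx3 (ENSMUSG00000038718.15) on the minus strand of chromosome 2 from 34171457 to 34373142. Pknox1 (ENSMUSG00000006705.13) lies on the plus strand of chromosome 17 from 31564734 to 31607693, and Pknox2 (ENSMUSG00000035934.16) on the minus strand of chromosome 9 from 36890982 to 37147407. Reads were counted over all exons of a gene by strand. Of the Meis1 exonic bases, 9.77% are shared with Gm37818 on the same strand, and of the Pbx2 exonic bases 6.24% are shared with Gpsm3, so some of their reads may have gone uncounted.

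RefSeq promoter windows (GRCm38.p6, the assembly of mm10) were matched for 4 of the 7 genes, Meis1, Meis2, Meis3 and Pbx2. The stretches before the start of Meis1 and of Pbx2 are shown because Meis1 was one of the 3 Meis genes that declined with stage and Pbx2 was the member called between genotypes. Each is printed 5′ to 3′ on the gene's own strand, without any exonic base, and capitals mark every match on either strand to 4 motifs searched: TGACAG (a Meis site), AGGTCA (a retinoic acid receptor site), GGGCGG (a GC box) and CCAAT. The Meis1 stretch is chr11:19018986-19019219 (minus strand), just outside the gene. The Pbx2 stretch is chr17:34592009-34592258 (plus strand), inside the span of Pbx2 in the counting annotation and between its exons.
Meis1: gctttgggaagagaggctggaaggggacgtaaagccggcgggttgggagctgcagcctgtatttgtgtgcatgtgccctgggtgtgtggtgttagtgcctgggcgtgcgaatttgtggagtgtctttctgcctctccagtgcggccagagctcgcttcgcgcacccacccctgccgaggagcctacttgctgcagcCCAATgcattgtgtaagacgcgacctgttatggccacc
Pbx2: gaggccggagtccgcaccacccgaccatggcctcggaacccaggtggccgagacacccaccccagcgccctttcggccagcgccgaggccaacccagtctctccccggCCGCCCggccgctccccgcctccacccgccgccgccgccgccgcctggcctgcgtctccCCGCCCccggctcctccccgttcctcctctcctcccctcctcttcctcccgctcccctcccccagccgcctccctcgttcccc
Over the 250 bases before the start, Pbx2 was 77.6% G or C with 27 CpG pairs, and 2.35% of all 32851 windows had as much G and C or more. Meis1 was 59.6% G or C with 13 CpG pairs, against medians of 52.4% and 6 over all windows. The Pbx2 window held 2 matches to GGGCGG, which 32.7% of all windows hold at least once, and the Meis1 and Meis2 windows held 1 match each to CCAAT, which 33.8% hold. TGACAG, present in 15.9% of all windows, and AGGTCA, present in 14%, were not in any of the 4 windows, which says only that these letters are not in those bases.

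Library totals ran from 35034237 to 56230058 counts. The lowest member value, Pknox2 in control E9.5 replicate 1, still rested on 171 counts, so the spread between libraries limited precision more than counting did. That library stood apart from the other controls of its stage. Long genes were low in it: its deviations from the mean of all libraries of its stage had a Spearman correlation with exonic length of -0.627, over 12611 genes. Its log2 CPM correlated with that of the other controls at 0.961 and 0.963, against 0.985 between them. Trends of the opposite sign were present in control E9.5 replicate 2 (0.531) and in mutant E9.5 replicates 2 (0.535) and 3 (0.44). Deviations from a shared mean depend on each other, so these are not separate trends. In mutant E10.5 replicate 3 the summed level of 12 erythroid markers was 20080 CPM, against 6396 and 9986 CPM in the other mutants of that stage. Esco2 counts over all exons, which check a deletion only in part, were lower in mutants by log2 -0.60 ± 0.14 (SE, adjusted p = 0.162) at E9.5, -0.53 ± 0.14 (0.02) at E10.5 and -0.26 ± 0.14 (0.238) at E11.5, all from edgeR's quasi-likelihood test. The limb mesenchyme genes Prrx1 and Tbx5 were present in every library, at 153 CPM or more and 50.8 CPM or more.

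Levels are given as CPM, counts relative to the scaled library size, with n = 3 libraries a group. Between genes they were compared only per kb of exon. On that scale Pbx2 was the most abundant of the 7 in every group, with group means of 60.4 to 86.5 CPM per kb. Meis2 came next in the E9.5 and E10.5 groups, with means of 7.15 to 20.3 CPM per kb over all 6 groups, with Meis1 at 3.98 to 10.8, Pbx3 at 7.40 to 9.44 and Pknox1 at 6.30 to 7.24 CPM per kb. Meis3 ran from 1.98 to 7.36 CPM per kb, and Pknox2, at 0.698 to 2.83 CPM per kb, was the lowest of the 7 in 5 groups and above Meis3 in E11.5 controls. Pbx2 therefore held between 58.6% and 69.7% of the summed level of the 7 genes in each group, and Pknox2 between 0.589% and 2.85%. The sum itself was 142 ± 1.66 CPM per kb (SD) in E9.5 controls, 120 ± 2.51 in E10.5 controls and 100 ± 7.72 in E11.5 controls. In mutants it was 130 ± 1.61, 98.6 ± 5.28 and 93.6 ± 7.67 CPM per kb at the same stages.

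**Figure D1:**
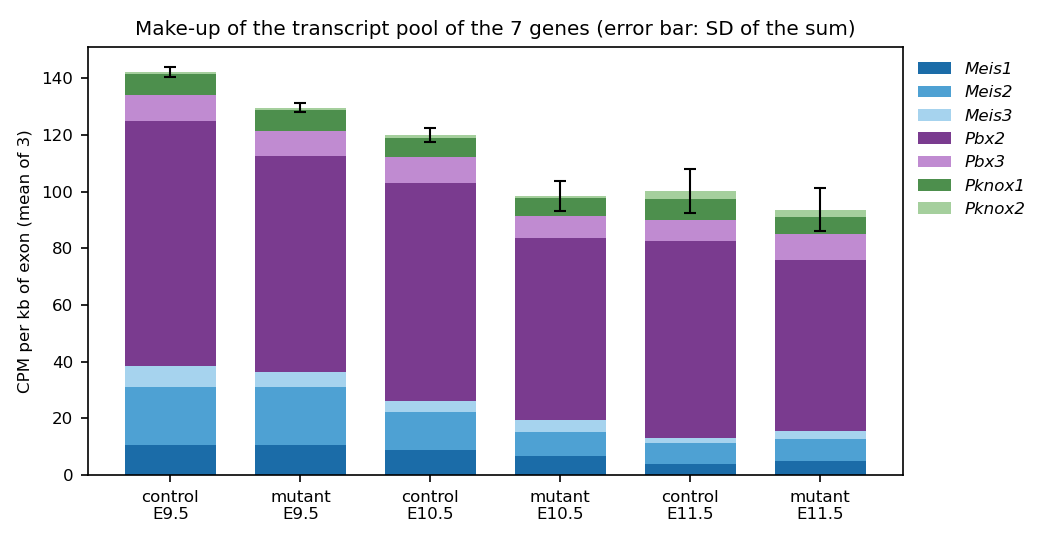
Stacked bars of the mean level per kb of exon (CPM per kb, 3 libraries) of each of the 7 genes in the 6 groups, with the SD of the sum as the error bar. The Pbx2 segment is the tallest in every bar, and the sum runs from 142 CPM per kb in E9.5 controls to 93.6 in E11.5 mutants.

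The 3 Meis genes declined as the bud grew, in both genotypes. In controls, Meis1 was 84.2, 125 and 131 CPM at E9.5, then 99.4, 86.3 and 90.0 CPM at E10.5, and 68.8, 30.8 and 26.3 CPM at E11.5. The E10.5 and E11.5 ranges did not overlap, but 1 of the 3 E11.5 libraries, replicate 1, was more than 2 times as high as each of the others. Meis2 had the same shape, with 168, 291 and 270 CPM in controls at E9.5, 183, 150 and 154 CPM at E10.5, and 138, 57.8 and 62.9 CPM at E11.5. Meis3, a paralogue studied mainly in the hindbrain and pancreas, was 21.5, 23.3 and 25.3 CPM in E9.5 controls, 15.7, 7.76 and 14.6 CPM in E10.5 controls, and 7.68, 5.96 and 5.19 CPM in E11.5 controls. Its 3 control groups did not overlap, so that every library of a later stage was below every library of the stage before.

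In the controls from E9.5 to E10.5, 1 of the 7 genes fell and none rose, where 27.5% of all genes changed and 12.5% fell (edgeR's quasi-likelihood test, adjusted p under 0.05). Meis3 fell by 0.88 ± 0.26 on the log2 scale (SE, adjusted p = 0.0189), and without control E10.5 replicate 2, the lowest library of its group, the adjusted p was 0.0947. The Meis2 difference was -0.58 ± 0.29 (0.142) and that of Meis1 -0.30 ± 0.28 (0.441). Once the trend of each library with gene length was removed, Meis2 (-0.89, adjusted p = 0.0207) and Pknox1 (-0.23, 0.0315) also passed the threshold. Control E9.5 replicate 1, in which long genes were low, was the lowest of its group for Meis1, Meis2, Meis3, Pknox1 and Pknox2.

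From E10.5 to E11.5 in the controls, 2 of the 7 genes fell and 1 rose, against 2.89% and 6.6% of all genes, 9.49% together. Meis1 fell by 1.13 ± 0.28 (SE, adjusted p = 0.0176, edgeR) and Meis3 by 1.01 ± 0.26 (0.0223). The Meis2 difference was of like size but missed the threshold, at -0.91 ± 0.29 (0.0564). These calls depended on single libraries. Without control E11.5 replicate 1, 5 genes passed, with Meis1 at -1.69 (0.000224), Meis2 at -1.43 (0.00192) and Pbx3 at -0.44 (0.0281). In that fit 1303 of all 20849 genes were called higher and 590 lower. Without control E10.5 replicate 1 or 3, or without E11.5 replicate 2 or 3, neither Meis1 (adjusted p 0.0517 to 0.105) nor Meis3 (0.0873 to 0.124) passed, and 1 gene did. These fits called 549 to 769 of all genes higher and 145 to 254 lower, against 1328 and 582 in the reported fit.

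From E9.5 to E11.5 as a whole, a comparison added after the adjacent stages had been seen, 5 of the 7 genes fell in controls and 1 rose, where 47.1% of all genes changed. The log2 differences were -1.89 ± 0.27 for Meis3 (adjusted p = 2.54e-05, edgeR), -1.50 ± 0.29 for Meis2 (0.000506) and -1.43 ± 0.28 for Meis1 (0.000553). Each of these 3 calls held in all 6 fits that left out 1 control library. The decline of the Pbx genes was much smaller, at -0.31 ± 0.08 (0.00397) for Pbx2 and -0.35 ± 0.12 (0.0222) for Pbx3. The Pbx3 call was lost without control E9.5 replicate 2 (adjusted p = 0.0627) and without control E11.5 replicate 2 (0.0841) or 3 (0.119). Pknox1 did not pass (0.02 ± 0.10, 0.861), and with the length trend removed its value was -0.24 (0.0184).

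The Meis genes also declined in mutants. There, Meis1 was 112, 112 and 115 CPM at E9.5, 72.9, 71.4 and 63.1 CPM at E10.5, and 68.5, 36.0 and 51.7 CPM at E11.5. Meis2 was 231, 252 and 251 CPM at E9.5, 106, 112 and 93.1 CPM at E10.5, and 114, 59.0 and 109 CPM at E11.5. The E9.5 and E10.5 ranges of both genes were far apart, while the E10.5 and E11.5 ranges overlapped. The SD at E11.5 was 31.2% of the mean for Meis1 and 32.3% for Meis2, against 7.66% and 9.46% at E10.5. The means were 113, 69.1 and 52.0 CPM for Meis1 and 245, 104 and 94.0 CPM for Meis2. Both means fell more in the first step, but the 2 steps were not tested against each other. Meis3 was 18.0, 16.9 and 16.4 CPM in E9.5 mutants, 13.3, 16.3 and 10.52 CPM in E10.5 mutants and 11.8, 5.84 and 7.34 CPM in E11.5 mutants.

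From E9.5 to E10.5 in the mutants, 2 of the 7 genes fell, against 4.4% of all genes (14% changed in either direction). Meis2 fell by 1.24 ± 0.29 (SE, adjusted p = 0.00807, edgeR). Pbx2 fell by 0.25 ± 0.08 (0.0487), but in none of the 6 fits without 1 of these mutant libraries (adjusted p 0.0849 to 0.179). The Meis1 difference was -0.71 ± 0.28 (0.104). From E10.5 to E11.5 only Pknox2 passed the threshold among the 7, where 2.89% of all genes did. From E9.5 to E11.5 (also added later) 4 of the 7 genes fell in mutants and 1 rose, where 20.2% of all genes changed. The log2 differences were -1.38 ± 0.29 for Meis2 (0.0024), -1.12 ± 0.28 for Meis1 (0.0082), -1.04 ± 0.26 for Meis3 (0.00872) and -0.33 ± 0.08 for Pbx2 (0.00635). Leaving out mutant E11.5 replicate 2, the lowest of its group for all 3 Meis genes, gave Meis1 an adjusted p of 0.0518 and Meis3 one of 0.0549.

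**Figure D2:**
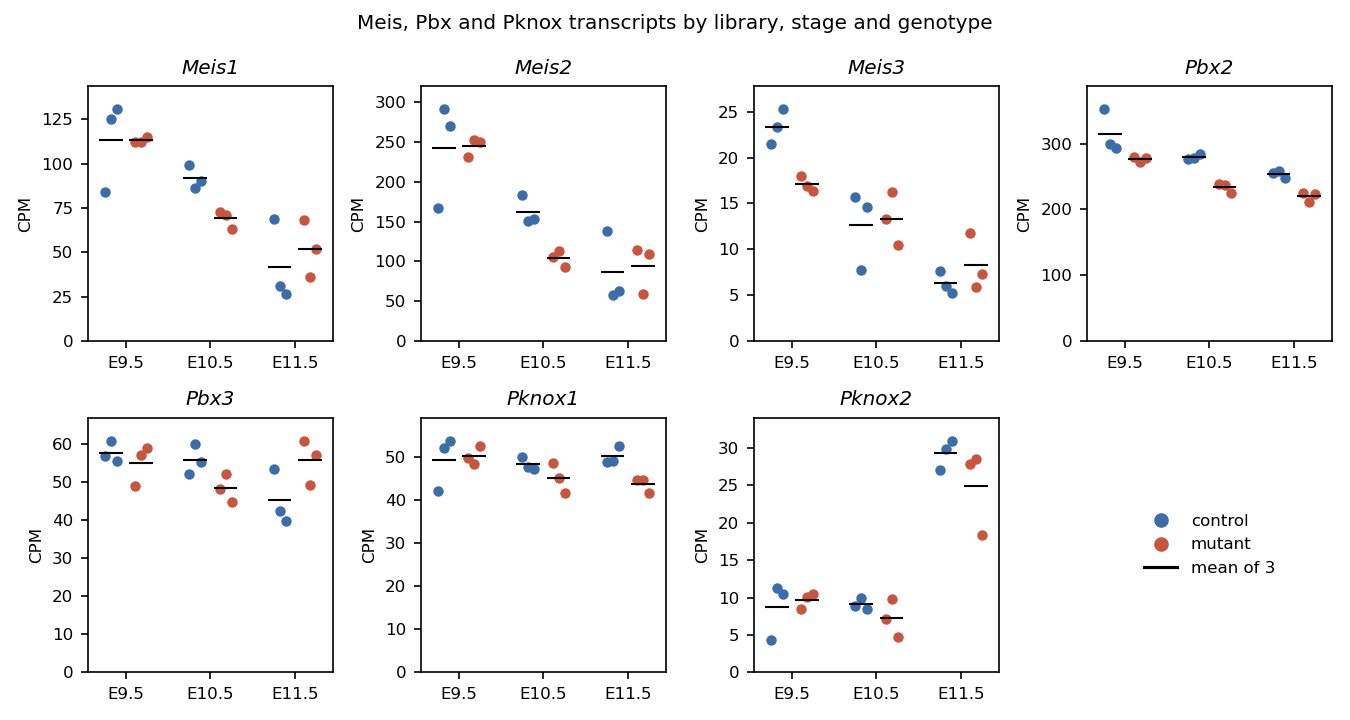
CPM of the 7 genes in each of the 18 libraries, by stage (horizontal axis), in controls (blue) and mutants (red), with a black line at the mean of 3 libraries; each panel's axis starts at 0. Meis1, Meis2 and Meis3 go down from E9.5 to E11.5, Pknox2 goes up at E11.5, and the Pbx2 mutants lie below the controls at each stage.

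Pknox2, the less studied of the Pknox paralogues, was the only member that rose with age. It was 4.27, 11.3 and 10.49 CPM in E9.5 controls, 8.92, 9.99 and 8.41 CPM in E10.5 controls and 27.0, 29.9 and 31.0 CPM in E11.5 controls. In mutants it was 8.48, 10.1 and 10.45 CPM, then 7.08, 9.85 and 4.72 CPM, then 27.9, 28.5 and 18.4 CPM. Every E11.5 library was above every younger one, in both genotypes. From E10.5 to E11.5 it rose by 1.69 ± 0.29 in controls (SE, adjusted p = 0.00192, edgeR), a fold of 3.22, and by 1.79 ± 0.30 in mutants (0.00268), a fold of 3.46. Both calls held in all 6 fits without 1 library of the groups compared. The summed level of 12 Schwann cell and neuron markers also moved, from 65.7 to 73.4 CPM in E10.5 controls to 144 to 188 CPM in E11.5 controls, with Sox10, which marks neural crest and Schwann cells, at medians of 4.52 and 10.52 CPM. The neuronal gene Elavl3 was at 0.587 CPM or less in every library. At E9.5 that sum was 92.8 to 121 CPM in controls, above its E10.5 range, while Pknox2 was not, and in mutants it went from 103 to 118 CPM at E10.5 to 134 to 173 CPM at E11.5. Other marker sums were also higher at E11.5 than at E10.5 in controls: 245 to 463 against 132 to 157 CPM for 10 muscle precursor markers, and 54.6 to 68.9 against 26.4 to 36.0 CPM for 12 macrophage markers. So were those of platelet (34.4 to 55.5 against 16.5 to 22.4 CPM) and trunk and flank markers (240 to 259 against 157 to 170 CPM). The same held for pericyte (559 to 679 against 522 to 539 CPM) and limb mesenchyme markers (2383 to 2419 against 2010 to 2103 CPM). Erythroid, endothelial and surface ectoderm sums overlapped between these stages. In mutants the muscle precursor sum went from 176 to 275 CPM to 357 to 529 CPM. The macrophage sum went from 49.7 to 84.3 CPM to 120 to 244 CPM there, and the pericyte sum from 326 to 350 CPM to 427 to 506 CPM. Platelet, trunk and flank, and limb mesenchyme sums overlapped between these stages in mutants. The part of these cells in the Pknox2 values was not tested.

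Pbx2, a broadly expressed Pbx paralogue, was the only member whose libraries did not overlap between genotypes at any stage. It was 352, 299 and 293 CPM in E9.5 controls against 280, 273 and 278 CPM in E9.5 mutants. At E10.5 it was 276, 278 and 284 CPM in controls against 239, 236 and 225 CPM in mutants, and at E11.5 255, 258 and 247 CPM against 226, 212 and 223 CPM. The highest mutant library was below the lowest control library at each of the 3 stages. That held for 0.82% of all genes (165 of 20118) in the lower direction. Fewer cells that express a gene and less of its RNA per cell cannot be told apart in whole limb buds.

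At E10.5, Pbx2 fell by 0.26 ± 0.08 on the log2 scale in mutants (SE, 95% interval -0.43 to -0.09, adjusted p = 0.0385, edgeR), a fold of 0.835. It was the 1 member of 7 called at that stage, where 13.9% of all genes were called and 6.63% were called lower. The call was marginal: without any 1 of the 6 libraries the adjusted p was 0.0717 to 0.157, with log2 values of -0.28 to -0.23, and it also missed the threshold with another size factor (0.0505), on the authors' log2 FPKM (0.053) and in a fit blocked by replicate number (0.0727). Pbx2 differed by -0.19 ± 0.08 at E9.5 (0.497) and by -0.20 ± 0.08 at E11.5 (0.0887), neither of which passed. Without control E9.5 replicate 1, its highest library, the E9.5 difference was -0.094. The mean of the 3 mutant effects, a comparison added after these values had been seen, was -0.22 ± 0.05 (95% interval -0.31 to -0.12, adjusted p = 0.00271), a fold of 0.861. Pbx2 was the 1 member of 7 called there, against 21.2% of all genes, and it stayed called in all 18 fits that left out 1 library (adjusted p 0.000233 to 0.00884). Without control E9.5 replicate 1 a second member, Pknox1, was called in that comparison, at -0.13 (0.0269). In that fit 3443 of all 20749 genes were called higher and 3489 lower.

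**Figure D3:**
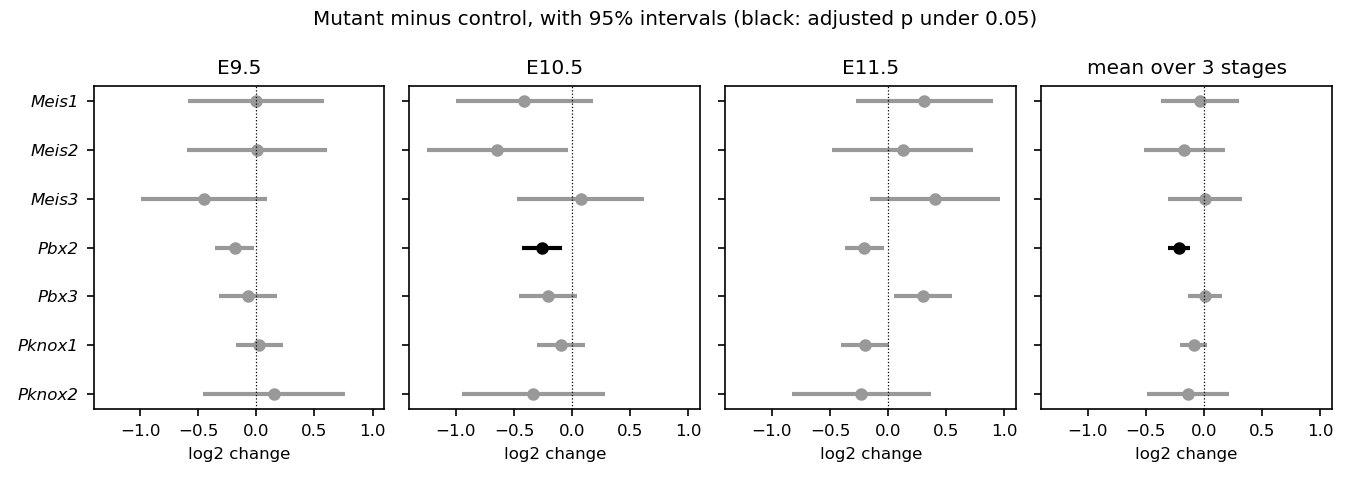
Log2 difference of mutants from controls (horizontal axis) with 95% intervals for the 7 genes at E9.5, E10.5, E11.5 and as the mean over the 3 stages; black marks an adjusted p under 0.05 in edgeR's quasi-likelihood test. The Pbx2 interval lies below 0 in all 4 panels and is called at E10.5 (-0.26) and in the mean (-0.22).

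Mutant and control ranges of Meis1 and Meis2 were apart at E10.5 and overlapped at E9.5 and E11.5. At E9.5 the differences were -0.00 ± 0.28 (SE, adjusted p = 1) for Meis1 and 0.01 ± 0.29 (0.994) for Meis2, and 95% intervals of -0.59 to 0.58 and -0.59 to 0.61 that leave room for changes of up to that size. At E10.5 all 3 mutant libraries were below all 3 controls for both genes, as the values above show. The differences were -0.65 ± 0.29 (95% interval -1.25 to -0.04, adjusted p = 0.151) for Meis2 and -0.41 ± 0.28 (0.359) for Meis1, in edgeR, and neither passed. In all, 4 of the 7 genes were lower without overlap at E10.5 (Meis1, Meis2, Pbx2 and Pbx3), as were 23.1% of all genes.

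Whether Meis1 and Meis2 passed at E10.5 changed with the fit. With the E10.5 libraries filtered, scaled and fitted alone, Meis2 (-0.64, adjusted p = 0.000716) and Meis1 (-0.41, 0.00183) both passed, in a fit that called 3114 genes higher and 3223 lower of 18313. In a fit blocked by replicate number, Meis2 passed (-0.65, 0.0376) and Meis1 did not (0.129). The spread between control libraries was 11.1% of the mean for Meis2 and 7.35% for Meis1 at E10.5, but 51.9% and 55.7% at E11.5. Removal of the length trend brought the E10.5 difference of Meis1 to -0.25 (0.598) and that of Meis2 to -0.46 (0.275). At E10.5 the Spearman correlations of deviations with exonic length were 0.156 to 0.331 in controls and -0.315 to -0.211 in mutants. These deviations were taken from the mean of both genotypes at that stage, so a difference between genotypes has to take opposite signs.

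At E11.5 the direction was not settled for the Meis genes. Differences of mutants from controls were 0.31 ± 0.28 for Meis1 (SE, adjusted p = 0.49, edgeR), 0.12 ± 0.29 for Meis2 (0.808) and 0.40 ± 0.26 for Meis3 (0.325). None of the 7 genes was called at E11.5, where 17.5% of all genes were. The tests of 2 members, Pbx2 and Pbx3, were under 0.05 before adjustment, and DESeq2 called 1 member, Pbx2. Of all 20118 genes, DESeq2 called 2044 higher and 2331 lower at that stage. Without control E11.5 replicate 1, Meis1 was higher in mutants by 0.87 ± 0.22 (0.0138) and Pbx3 by 0.44 ± 0.12 (0.0221), so that 2 of the 7 were called. In that fit 1224 of all 20849 genes were called higher and 1616 lower. In control E11.5 replicate 1 itself, Meis2, at 138 CPM, was above all 3 mutant libraries, and in the other controls it was within or below the mutant range.

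Of the rest, Pbx3, a paralogue of Pbx2, had group means between 45.2 and 57.7 CPM. It was 56.7, 60.8 and 55.5 CPM in E9.5 controls and 48.9, 57.1 and 59.0 CPM in E9.5 mutants. At E10.5 it was 52.2, 60.0 and 55.3 CPM in controls and 48.1, 52.1 and 44.7 CPM in mutants, and at E11.5 53.4, 42.5 and 39.7 CPM in controls and 60.8, 49.0 and 57.2 CPM in mutants. It was on the lower side in mutants at E10.5 (-0.21 ± 0.12, adjusted p = 0.27, edgeR) and on the higher side at E11.5 (0.30 ± 0.12, 0.0936). Neither passed, and the change between these 2 effects was 0.51 ± 0.17 (0.357).

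Pknox1 was the flattest gene of the 7. It was 42.1, 52.1 and 53.8 CPM in E9.5 controls, 49.8, 48.3 and 52.4 CPM in E9.5 mutants, 50.1, 47.7 and 47.1 CPM in E10.5 controls and 48.5, 45.2 and 41.7 CPM in E10.5 mutants. At E11.5 it was 48.8, 49.1 and 52.5 CPM in controls and 44.7, 44.7 and 41.5 CPM in mutants, ranges that did not overlap. The difference at E11.5 was -0.20 ± 0.10 (SE, adjusted p = 0.17, edgeR). With Pbx2 it made 2 of the 7 genes lower without overlap at that stage, as were 20.7% of all genes. Pknox2 differed between genotypes by 0.15 ± 0.29 (0.838), -0.34 ± 0.29 (0.487) and -0.23 ± 0.28 (0.626) at the 3 stages, and its ranges overlapped at each.

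For Meis3 the ranges of the genotypes were apart at E9.5 alone. Its 3 mutant libraries (16.4 to 18.0 CPM) were below its 3 controls (21.5 to 25.3 CPM), a difference of -0.45 ± 0.26 (SE, adjusted p = 0.516, edgeR) that did not pass. None of the 7 genes was called at E9.5, where 0.184% of all genes were, and 1 member, Pbx2, had a p under 0.05 before adjustment. DESeq2 and limma-voom also called none. With Pbx2, Meis3 made 2 of 7 lower without overlap at E9.5, as were 3.61% of all genes. Its difference went to 0.07 ± 0.26 (0.886) at E10.5, and the change of its effect from E9.5 to E11.5 was 0.85 ± 0.37 (0.159).

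Tests of the change in mutant effect called none of the 7 genes. From E9.5 to E10.5, 2.22% of all genes were called, from E10.5 to E11.5 0.0746% and from E9.5 to E11.5 6.42%. Before adjustment 0, 1 and 2 members had a p under 0.05 in these comparisons, and DESeq2 and limma-voom also called none of the 7. The largest shifts of the Meis genes from E10.5 to E11.5 were 0.77 ± 0.41 (SE, adjusted p = 0.631, edgeR) for Meis2 and 0.72 ± 0.39 (0.655) for Meis1. The E10.5 and E11.5 effects of Meis1 and Meis2 were thus not shown to differ. Over the 7 genes the median mutant effect was -0.00 at E9.5, -0.26 at E10.5 and 0.12 at E11.5, beside medians of -0.01, 0.02 and 0.01 over all genes tested.

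From E10.5 on, the groups stood in the same order for Meis1 and Meis2. For both, the means ran from E10.5 controls (91.9 and 162 CPM) to E10.5 mutants (69.1 and 104 CPM), E11.5 mutants (52.0 and 94.0 CPM) and E11.5 controls (42.0 and 86.1 CPM). The ranges of the last 3 groups in that order overlapped their neighbours, and those of the E10.5 groups did not overlap each other. For Pbx2, E9.5 mutants (277 CPM) stood between E10.5 controls (279 CPM) and E11.5 controls (253 CPM), and only the first of these neighbours overlapped them. For Pbx3 and Pknox1 each group overlapped the next in the order of means, while groups farther apart, such as the E11.5 mutants and controls of Pknox1, did not all overlap.

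Across the 18 libraries Meis1 and Meis2 moved nearly as one, with a Pearson correlation of log2 CPM of 0.957. Meis3 correlated with them at 0.88 and 0.842, and Pknox2 with Meis1 at -0.635. Pbx2 was less like the Meis genes, at 0.588 with Meis1 and 0.676 with Meis2, and Pbx3 and Pbx2 reached 0.355. These values are descriptions over libraries that share stage and genotype, and were not computed within stages.

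The genes most like each member over the same 18 libraries were taken from 11758 genes with a mean log2 CPM of at least 1. For Meis1 they were Usp29 (0.965), Hoxb3 (0.958) and BC052040 (0.939). For Meis2 they were BC052040 (0.971), Hoxc4 (0.967) and the retinoic acid receptor gene Rarb (0.959), itself a known target of retinoic acid. Meis3 was most like Hoxa4 (0.943), Cnrip1 (0.919) and Hoxb5 (0.916), and Pbx3 like Hoxb3 (0.833), the antisense RNA Hoxaas2 (0.819) and Cfap74 (0.768). Hox genes from the 3′ part of their clusters, which have anterior limits in the body axis, therefore stood in the lists of all 4 of these members. Pbx2 was most like Crabp2 (0.947), which encodes a retinoic acid binding protein, Tada1 (0.93) and Nfil3 (0.925). Pknox1 was most like Zfp449 (0.858), Mmab (0.845) and Zfp658 (0.835). Pknox2 was most like Nsg2 (0.982) and Dpysl3 (0.969), both known from neurons, and the imprinted gene Plagl1 (0.954).

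The likeness could be read in single libraries. Hoxb3, Hoxc4 and Rarb were chosen for likeness over these same libraries, so their agreement with Meis1 and Meis2 here is no separate support. Control E11.5 replicate 1, high for Meis1 and Meis2, was also high for Hoxb3, at 40.1 CPM against 11.2 and 8.70 CPM in the other E11.5 controls. Hoxc4 was 28.5 CPM there against 11.6 and 8.80 CPM, and Rarb 14.9 CPM against 7.11 and 7.93 CPM. The low library among E11.5 mutants was replicate 2, with Hoxb3 at 17.8 CPM against 47.0 and 30.4 CPM, and Rarb at 5.43 CPM against 13.5 and 19.3 CPM. The sum of 12 trunk and flank markers did not single out control E11.5 replicate 1, at 243 CPM there against 259 and 240 CPM, but in mutants it was lowest in replicate 2, at 115 CPM against 148 and 131 CPM. The sum of 18 distal limb genes was 1687 CPM there against 1835 and 2100 CPM, and in mutant E11.5 replicate 2 it was 2339 CPM against 1423 and 1755 CPM. In each genotype the library with the most Meis1 at E11.5 thus had the least distal signal. The sum of 11 proximal limb genes went the other way in controls only. It was 1196 CPM in control E11.5 replicate 1 against 1061 and 996 CPM, but 528 CPM in mutant E11.5 replicate 1 against 538 and 582 CPM. The other E11.5 controls share a leading number in their descriptions, and control replicate 1 has a different one. That label and the high Meis1 level of this library cannot be told apart, and what the label marks is not given. Whether the dissection of these buds differed was not tested.

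**Figure D4:**
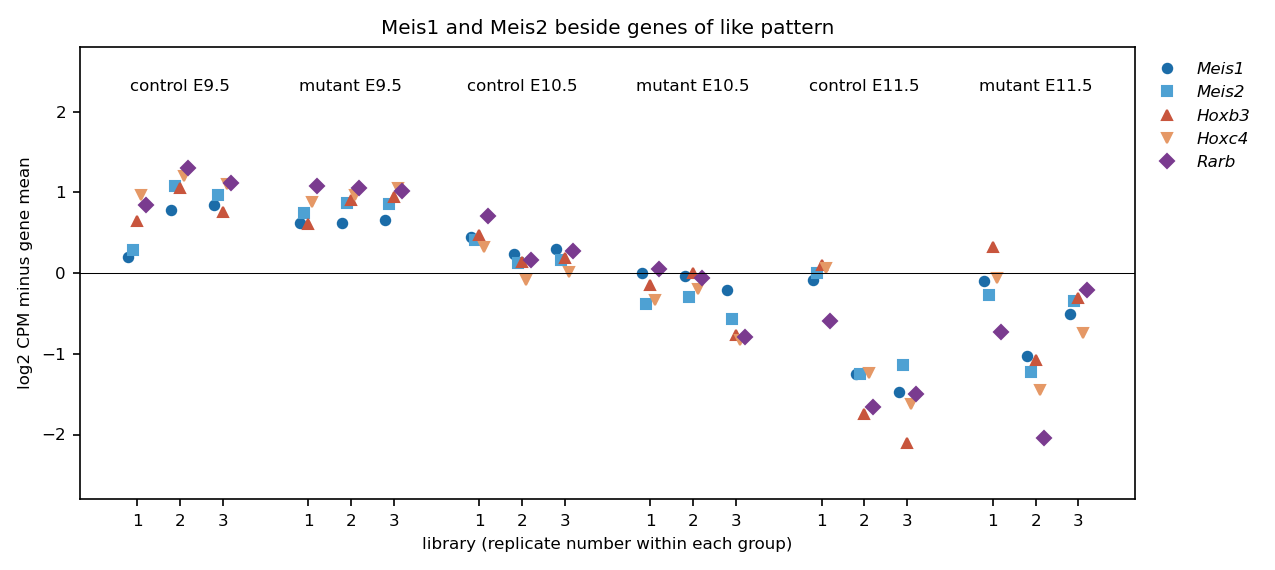
Log2 CPM of Meis1, Meis2, Hoxb3, Hoxc4 and Rarb minus each gene's mean over the 18 libraries (vertical axis), for each library by group. The 5 genes share high and low libraries at E11.5, where control replicate 1 is above control replicates 2 and 3, and mutant replicate 2 is below mutant replicates 1 and 3. Hoxb3, Hoxc4 and Rarb were chosen for their likeness to Meis1 or Meis2 over these libraries.

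Among other TALE genes the Iroquois genes had the largest differences. The list held 10 tested genes: the Iroquois genes, Pbx4, Tgif1, Tgif2 and Pbxip1, which encodes a protein that binds Pbx. None was called at E9.5, while 3 fell at E10.5 and 2 fell at E11.5, with none higher, and the list medians were -0.05, -0.33 and -0.39. Of all 20118 genes, 13.9% were called at E10.5 (6.63% lower) and 17.5% at E11.5 (1613 genes higher and 1916 lower). At E11.5 3 fell and 1 rose when control E9.5 replicate 1 and mutant E10.5 replicate 3 were left out. In that fit 2813 of all 20596 genes were called higher and 3100 lower. Irx5 fell by 1.40 ± 0.27 at E10.5 (SE, adjusted p = 0.00225, edgeR) and Irx3 by 1.57 ± 0.42 (0.0205). Irx3 and Irx5 together are known to be needed early for anterior and proximal elements of the hindlimb. Irx1 was lower by 2.70 ± 0.49 at E11.5 (0.00123), with means of 17.6 CPM in controls and 2.70 CPM in mutants. At E10.5 its means were 1.56 CPM in controls and 2.88 CPM in mutants. Irx1 (0.89 ± 0.49, 0.251) and Irx2 (0.67 ± 0.24, 0.0814) were on the higher side in mutants at E10.5, and neither passed. Pbxip1 fell at both stages, by 0.43 ± 0.13 (0.0325) and 0.46 ± 0.13 (0.02). Pbx4 was low and did not pass at E11.5 (-0.92 ± 0.36, 0.0879).

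Genes of the proximal limb, a list without any Meis gene, mostly fell in mutants. Of 11 tested, none was called at E9.5, and at each of E10.5 and E11.5 6 fell and 1 rose. Over all genes 13.9% were called at E10.5 (6.63% lower) and 17.5% at E11.5. The list medians were -0.20, -1.07 and -0.87. Tbx18, a T-box gene of proximal mesenchyme, fell by 2.60 ± 0.21 at E10.5 (SE, adjusted p = 5.97e-07, edgeR) and by 2.39 ± 0.21 at E11.5 (1.73e-06). Shox2, needed for the humerus, fell by 1.88 ± 0.19 (6.55e-06) and 1.67 ± 0.19 (1.99e-05). Tbx15 fell by 1.31 ± 0.23 at E10.5 (0.00124), and Pax9 fell by 3.36 ± 0.44 at E11.5 (7.88e-05). For these genes the fall at E10.5 stood beside Meis2 at -0.65 and Meis1 at -0.41, and at E11.5 beside 0.12 and 0.31.

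The retinoic acid pathway lies upstream of Meis1 and Meis2 in the limb, and 19 of its genes were tested. None was called at E9.5, at E10.5 4 fell and 1 rose, and at E11.5 3 fell and none rose, with list medians of -0.07, 0.04 and -0.26. Over all genes 13.9% were called at E10.5 and 17.5% at E11.5, and the E11.5 count of the list was near that share. Without the same pair of libraries none rose at E10.5 and 7 fell at E11.5. In that fit 2813 of all 20596 genes were called higher and 3100 lower at E11.5. Stra6, the receptor that takes up retinol, fell by 1.57 ± 0.16 at E10.5 (SE, adjusted p = 6.38e-06, edgeR). Cyp26b1, the enzyme that clears retinoic acid from the distal bud, fell by 0.99 ± 0.22 at E10.5 (0.00614) and by 1.29 ± 0.22 at E11.5 (0.000786). The receptor gene Rarg fell by 0.72 ± 0.10 at both stages (0.000122 and 9.53e-05), and Rdh10, which makes retinal, fell by 0.51 ± 0.13 at E11.5 (0.015). Crabp2 also fell at E10.5, by 0.71 ± 0.23 (0.0454). The gene that rose at E10.5 was Cyp26a1, another enzyme that clears retinoic acid, by 1.53 ± 0.44 (0.0289).

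Of 18 distal limb genes, which include FGF response genes, none was called at E9.5, 3 rose and 1 fell at E10.5, and 5 rose and 2 fell at E11.5. The list medians were -0.00, 0.18 and -0.08. Over all genes 13.9% were called at E10.5 and 17.5% at E11.5. The genes with the smallest p among the risen were targets of FGF signals: Etv4 rose by 1.01 ± 0.14 at E10.5 (SE, adjusted p = 0.00018, edgeR) and 1.27 ± 0.15 at E11.5 (2.1e-05), Spry1 by 0.53 ± 0.12 at E10.5 (0.00809), Spry4 by 0.86 ± 0.15 at E11.5 (0.000703) and Etv5 by 0.55 ± 0.12 at E11.5 (0.00525). Lhx9, a LIM homeobox gene of the mesenchyme, fell by 0.89 ± 0.20 at E10.5 (0.00691).

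**Figure D5:**
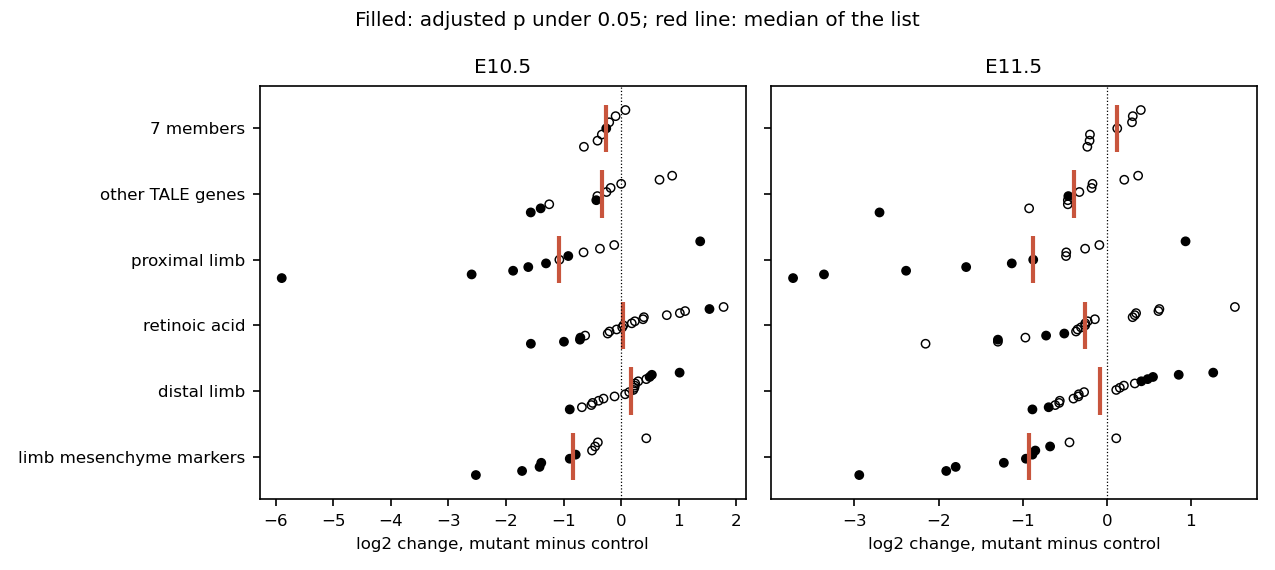
Log2 difference of mutants from controls (horizontal axis) at E10.5 and E11.5 for the 7 genes and for 5 gene lists; each point is 1 gene, filled where the adjusted p is under 0.05, and the red line is the list's median. The 7 genes lie between -0.65 and 0.40, and the medians of the proximal limb list (-1.07 and -0.87) and of the limb mesenchyme markers (-0.84 and -0.92) lie well to the left.

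Markers of several cell types differed between genotypes, and these values stand beside each mutant difference above. At E9.5 no marker was called, but 3 sums were apart between controls and mutants: limb mesenchyme at 1801 to 2159 against 1635 to 1787 CPM, surface ectoderm at 488 to 594 against 638 to 757 CPM and endothelium at 473 to 534 against 536 to 642 CPM. Beside the marker counts that follow, 13.9% of all genes were called at E10.5 (6.63% lower) and 17.5% at E11.5. Of 10 limb mesenchyme markers 6 fell at E10.5 and 8 at E11.5. Their summed level was 2010 to 2103 CPM in E10.5 controls and 966 to 1222 CPM in E10.5 mutants, and 2383 to 2419 against 970 to 1284 CPM at E11.5. Of 14 surface ectoderm markers, 13 had risen at E10.5 and 12 at E11.5, with sums of 443 to 636 CPM in controls against 925 to 1325 CPM in mutants at E10.5. Of 12 erythroid markers 10 rose at E10.5, or 2 without control E9.5 replicate 1 and mutant E10.5 replicate 3, and none was called at E11.5. Without that pair 1867 of all 20596 genes were called higher at E10.5 and 1978 lower. Of 12 macrophage markers 6 and then 8 rose, of 12 endothelial markers 4 and then 2, and none of the 9 tested platelet markers was called.

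The other lists moved in part. Muscle precursor markers gave 2 higher and 2 lower of 10 at E10.5 (none lower without that pair of libraries), then 3 higher. Schwann cell and neuron markers gave 3 higher of 12, then 1 higher and 1 lower. Trunk and flank markers gave 2 higher (1 without the pair) and 2 lower of 12, then 2 higher and 4 lower. Pericyte markers gave 1 higher and 2 lower of 9 at both stages. Pericyte sums were 522 to 539 CPM in controls against 326 to 350 in mutants at E10.5, then 559 to 679 against 427 to 506. Trunk and flank sums were 157 to 170 against 102 to 154 CPM, then 240 to 259 against 115 to 148. At E10.5 muscle precursor sums were 132 to 157 against 176 to 275 CPM. Schwann cell and neuron sums were 65.7 to 73.4 against 103 to 118 CPM there. Both of these overlapped at E11.5. Without control E9.5 replicate 1 and mutant E10.5 replicate 3 together, the mean Pbx2 effect was -0.18 (adjusted p = 0.00088, edgeR). The part of these cell types in the differences of the 7 genes was not tested.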

How the data were processed

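RNA from 18 forelimb bud libraries (6 groups of 3, grouped by title) was used. Per the file headers, the authors' deposited counts are whole read-pair counts per gene from featureCounts 1.6.4, reverse-stranded, over GENCODE M22 exons on mm10; by default, pairs that fit several genes or places are left out. The submitters' processing notes also name cutadapt, STAR and limma, with settings not given in the sources used here. A table of log2 FPKM values deposited by the authors served as an alternative only. Symbols covered 99.8% of identifiers.

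Counts were fitted in R 4.3.3 with edgeR 4.0.16 (filterByExpr, TMM, robust quasi-likelihood, 1 model of 6 groups; common biological coefficient of variation 0.231), with Benjamini-Hochberg adjustment over 20118 genes and a threshold of 0.05. Likeness used log2 CPM with a prior count of 2. The fit was tested on simulated data. Alternatives were DESeq2 1.42.0, limma 3.58.1 (voom, or on log2 FPKM), other size factors and filters, a length correction, a replicate block, stages fitted alone and left-out libraries. Members and lists were chosen with earlier results of these data known. Besides the 7 members, the genes named are the 3 most like each member, the 3 smallest adjusted p-values per limb list at E10.5 and E11.5, defining markers and Esco2. In the retinoic acid list, Crabp2 and Cyp26a1 were added, so that every gene called there is named. Irx2 was added among the other TALE genes for its direction. Mutants and controls of the same replicate number deviated together at E9.5 (correlations 0.333, 0.232 and 0.119) but not in every pair of the later stages. The descriptions also carry a leading number. Between mutants and controls that share it, correlations were -0.223 at E9.5, -0.163 to 0.227 at E10.5 and 0.479 at E11.5. The E11.5 pair was control replicate 1 and mutant replicate 3. The labels do not say what either number marks.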

Additional observations from a re-analysis of the deposited data

How the results depend on the processing

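The 13 counts of called members were refitted under each alternative, and the cause of a shift was not tested. From E9.5 to E10.5 in controls the count went from 1 to 2 in DESeq2 and with the replicate block, and to 3 with the length trend removed, with or without the block. Over all genes, 3009 were called higher and 2514 lower there in the reported fit, of 20118. These became 3337 and 3236 in DESeq2, 3241 and 2460 with the block, 2637 and 3349 with the trend removed, and 2576 and 3053 with both. For mutants against controls at E10.5 the member count went from 1 to 0 with RLE size factors, with no filter on low counts, on the authors' log2 FPKM and in the libraries that share a leading number in their description, and to 3 with each stage fitted alone. The all-gene calls were 1469 higher and 1333 lower of 20118 as reported, and 1477 and 1298 with RLE size factors. They were 1205 and 1017 of 34141 with no filter, and 1352 and 1267 of 14692 on log2 FPKM. In the libraries that share a number they were 433 and 443 of 20676, and with each stage alone 3114 and 3223 of 18313. At E11.5 the member count went from 0 to 1 in DESeq2, on log2 FPKM and with the length trend removed, and to 2 with that removal and the replicate block together or without control E9.5 replicate 1 and mutant E10.5 replicate 3. The all-gene calls were 1613 higher and 1916 lower of 20118 as reported, 2044 and 2331 in DESeq2, and 1751 and 1594 of 14692 on log2 FPKM. They were 2110 and 1987 with the trend removed and 1941 and 1816 with the block as well. Without the pair of libraries they were 2813 and 3100 of 20596. From E9.5 to E10.5 in mutants the member count went from 2 to 1 with no filter, on log2 FPKM and without that pair of libraries. The all-gene calls were 1938 higher and 886 lower of 20118 as reported, and 1669 and 649 of 34141 with no filter. They were 1724 and 924 of 14692 on log2 FPKM, and 1980 and 1433 of 20596 without the pair. Fits without 1 library gave 0 to 0 at E10.5 and 0 to 2 at E11.5 for mutants against controls, 0 to 1 and 1 to 5 for the control steps, 5 to 6 from E9.5 to E11.5 in controls, 1 to 2 for the mean effect, 1 to 1 for each mutant step and 3 to 5 from E9.5 to E11.5 in mutants. At E10.5 the all-gene calls of these fits ran from 747 higher and 726 lower of 20735 to 1281 and 969 of 20826. The replicate block, a pairing by number, changed no member call between genotypes at E9.5. At E10.5 it called Meis2 (-0.65, adjusted p = 0.0376) and not Pbx2 (-0.26, 0.0727), and in mutants from E9.5 to E10.5 Meis1 (-0.72, 0.0149) and not Pbx2 (-0.25, 0.0891). In controls it also called Meis2 from E9.5 to E10.5 (-0.55, 0.0408) and from E10.5 to E11.5 (-1.01, 0.00784).

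No value called in the comparisons as reported changed sign under these settings, but uncalled ones did (log2 differences), and of those only Pknox1 from E9.5 to E11.5 in controls was called with the other sign. In mutants against controls at E9.5, Meis1 was 0.0028 with no filter, 0.022 in limma-voom, 0.025 with the replicate block and 0.0029 with each stage alone. With the length trend removed, with or without the replicate block, Meis2 was -0.19 and Pknox1 -0.10 in that comparison. Pbx3 in mutants from E9.5 to E11.5 was -0.0093 and -0.015 in these 2 fits, and Pknox2 in controls from E9.5 to E10.5 was -0.17 and -0.13. Pknox1 in controls was -0.0028 and -0.0025 from E10.5 to E11.5, and -0.24 in both from E9.5 to E11.5 (adjusted p = 0.0184 and 0.0347), where log2 FPKM gave -0.029. Without 1 library, values at E9.5 ran from -0.17 to 0.12 for Meis1, -0.19 to 0.16 for Meis2, -0.12 to 0.010 for Pbx3, -0.074 to 0.093 for Pknox1 and -0.17 to 0.39 for Pknox2. Those of Meis3 at E10.5 ran from -0.18 to 0.25 and of Meis2 at E11.5 from -0.097 to 0.64. From E9.5 to E10.5 in controls they ran from -0.10 to 0.0013 for Pbx3, -0.14 to 0.037 for Pknox1 and -0.26 to 0.30 for Pknox2, and from E9.5 to E11.5 from -0.087 to 0.091 for Pknox1. In mutants they ran from -0.31 to 0.10 for Meis2 and -0.10 to 0.0052 for Pknox1 from E10.5 to E11.5, and from -0.062 to 0.10 for Pbx3 from E9.5 to E11.5.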
